A study of Mus musculus with 2 samples.

Results

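The 10 fatty acid use genes Ppara, Ppargc1a, Pdk4, Cpt1b, Cd36, Lpl, Acsl1, Acadm, Hadha and Fabp3 were read out by allele in heart nuclei of mice of 2 ages. They were chosen by name for their known roles in lipid uptake, in oxidation and in the regulation of both, with earlier results of these data known. All 10 were listed in both libraries, among 25235 genes listed in at least 1 of them. Of the 10, 9 held at least 20 reads in each library, the minimum used for every comparison, and Cpt1b did not reach it.

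The libraries came from single-nucleus RNA sequencing of 1 adult heart (9 weeks) and 1 aged heart (78 weeks). Both animals were female F1 hybrids with a C57BL/6J (BL6) mother and a CAST/EiJ (CAST) father. The genotype label of both names the plain cross (C57BL/6JxCAST/EiJ), the strain label names C57BL/6J∆Xist-/+ animals crossed to CAST/EiJ, and the study describes the animals as wild type. The nuclei were sorted from flash-frozen tissue, and only those with an active BL6 X chromosome were pooled, over all cell types. Each value is thus a sum over 1 library per age, and no test between the ages was possible. Intervals are exact 95% intervals, or Newcombe intervals for changes in allelic ratio, and cover counting error only. An age difference cannot be told apart from a difference between 2 animals or 2 libraries.

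The heart burns mostly fatty acids. Lipoprotein lipase releases them from circulating particles at the vessel wall, CD36 takes them into the cell, a cytosolic binding protein carries them and acyl-CoA synthetases activate them. The carnitine shuttle then moves them into mitochondria, where the enzymes of beta-oxidation shorten them. The nuclear receptor PPAR alpha and its coactivator PGC-1 alpha switch on many of these genes, and the kinase PDK4 holds back glucose oxidation by inhibiting pyruvate dehydrogenase.

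Reads that overlap a base that sets the strains apart (SNP reads) numbered 9747535 at 9 weeks and 5805807 at 78 weeks. Levels are given as reads scaled to 1000000 SNP reads of the library (RPM), and the allelic ratio is the share of BL6 reads. A gene was called higher or lower when its RPM differed at least 1.5-fold. Over the 12736 genes with 20 reads in both libraries, the median log2 ratio of aged over adult RPM was 0.22. Of these genes, 3571 were called higher and 1500 lower, which became 2289 and 2339 after scaling by the median of ratios, so values are also read against that median. The cardiac identity was checked on 9 cardiomyocyte markers, all above the minimum, whose summed level was 34508 RPM at 9 weeks and 32425 at 78 weeks. Xist, which is transcribed from the silent X chromosome, was read from CAST in 95.8% and 96.9% of its reads.

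Most fatty acid use genes were lower in the aged heart. Of the 9 members with 20 reads, 6 were called lower (Ppargc1a, Pdk4, Cd36, Lpl, Acadm and Hadha), where 11.8% of all genes were. Fabp3 alone among them was called higher, where 28.0% of all genes were. Together 7 of 9 passed 1.5-fold in either direction, where 39.8% of all genes did, and 7 of 9 had a ratio below 1, where 35.8% did. Against the 4350 genes with at least 243 reads in both libraries, as many as the least read of the 9 members had, these shares were 9.33% lower, 21.8% higher, 31.1% in either direction and 34.6% below 1. Acsl1 and Ppara lay within 1.5-fold. The median log2 ratio of the 9 members was −0.76, against 0.22 for all genes. In sum, the 10 members took 4169 RPM at 9 weeks and 2426 RPM at 78 weeks, a ratio of 0.582.

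**Figure D1:**
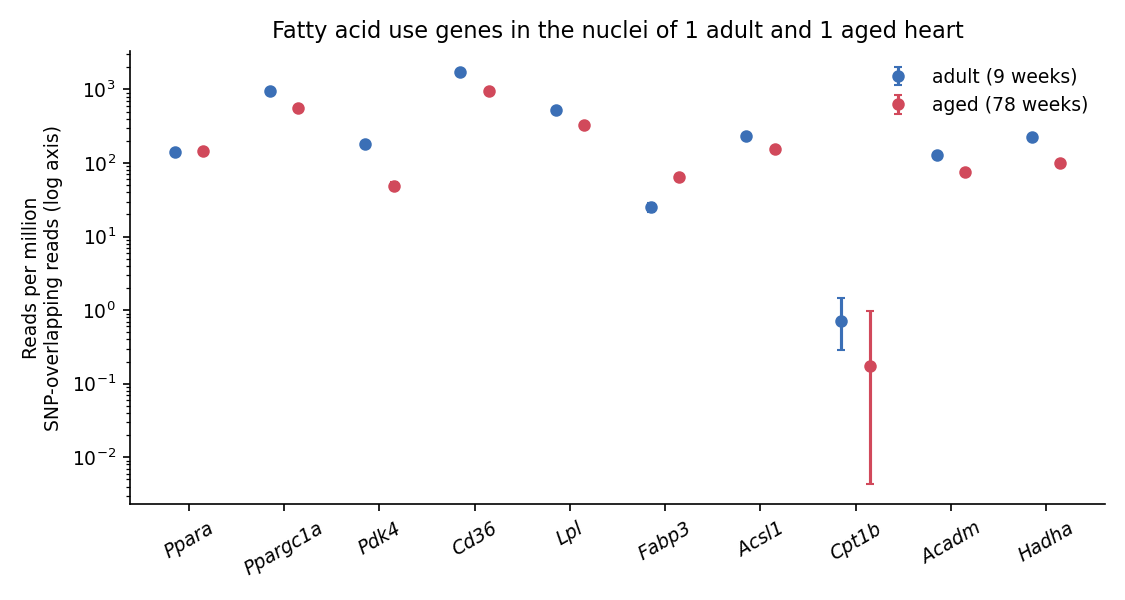
Level of each member in RPM on a log axis, with 1 adult (blue) and 1 aged (red) library and exact 95% Poisson intervals as bars. Pdk4 dropped from 183 to 48.7 RPM, Fabp3 stood at 24.9 and 63.7 RPM, and Cpt1b was below 1 RPM in both.

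Promoter windows show the sequence at which these genes begin, and they were searched for the letters that nuclear receptors such as PPAR alpha read. RefSeq windows on GRCm38.p6, each of 300 bases around a start and mostly before it, were matched to 8 of the 10 members, with Cpt1b and Lpl unmatched. The windows of the 4 members below are printed 5′ to 3′ on the minus strand, on which all 4 genes lie. Pdk4 and Hadha are shown as those with the lowest ratios among the 9 members with 20 reads, and Cd36 and Acadm as those that hold the searched hexamer. Capitals mark AGGTCA, which lies on the other strand in both and so reads as its reverse complement. The windows are chr6:5496229-5496528 for Pdk4, chr5:30154931-30155230 for Hadha, chr5:17835847-17836146 for Cd36 and chr3:153944594-153944893 for Acadm.
Pdk4: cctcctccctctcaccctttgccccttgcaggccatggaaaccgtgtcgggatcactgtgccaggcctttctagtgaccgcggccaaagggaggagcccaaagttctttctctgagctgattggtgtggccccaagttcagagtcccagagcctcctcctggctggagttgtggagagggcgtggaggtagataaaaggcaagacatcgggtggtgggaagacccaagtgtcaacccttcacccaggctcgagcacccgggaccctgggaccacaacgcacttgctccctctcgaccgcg
Hadha: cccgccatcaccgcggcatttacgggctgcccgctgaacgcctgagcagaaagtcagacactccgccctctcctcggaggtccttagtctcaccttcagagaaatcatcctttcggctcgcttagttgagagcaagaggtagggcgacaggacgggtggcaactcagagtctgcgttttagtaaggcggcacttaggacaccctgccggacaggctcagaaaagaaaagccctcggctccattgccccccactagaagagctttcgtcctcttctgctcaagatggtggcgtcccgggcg
Cd36: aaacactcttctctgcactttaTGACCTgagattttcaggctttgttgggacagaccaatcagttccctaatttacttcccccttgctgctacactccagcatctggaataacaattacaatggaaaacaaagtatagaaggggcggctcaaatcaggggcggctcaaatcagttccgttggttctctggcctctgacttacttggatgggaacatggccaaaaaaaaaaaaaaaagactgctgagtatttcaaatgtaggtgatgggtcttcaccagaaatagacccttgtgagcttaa
Acadm: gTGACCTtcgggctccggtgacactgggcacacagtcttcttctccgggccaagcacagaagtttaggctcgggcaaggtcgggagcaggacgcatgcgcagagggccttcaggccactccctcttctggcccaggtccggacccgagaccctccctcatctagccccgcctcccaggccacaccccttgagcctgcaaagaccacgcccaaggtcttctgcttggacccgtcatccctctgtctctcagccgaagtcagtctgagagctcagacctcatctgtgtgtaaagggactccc

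AGGTCA, searched on both strands, was present in the windows of Cd36 and Acadm and in 16.3% of all 32851 windows. In Acadm its first printed base lay 249 bases before the start, and in Cd36 228 bases before it. The direct repeat AGGTCANAGGTCA was found in 13 of all windows (0.0396%) and in none of the 9 windows of members, Acsl1 having 2. A match describes letters and not a bound site, and a missing match says only that these letters are not in the window. The Cd36 window lies inside the locus over which its reads were counted, and more than 1 start can contribute to those reads.

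Of the regulators, Ppargc1a was called lower and Ppara was not, and the kinase gene Pdk4 was called lower as well. Ppara, the nuclear receptor that fatty acids activate, held 1395 reads at 9 weeks and 857 at 78 weeks, or 143 RPM (136 to 151) and 148 RPM (138 to 158). Its ratio of 1.03 (0.946 to 1.12) includes 1, and the locus spans 85734628 to 85806851 of chromosome 15. Relative to the median of all genes its log2 ratio was −0.18. That value lay outside the interval of the log2 ratio as measured, −0.08 to 0.17. BL6 reads alone had a ratio of 0.934 (0.829 to 1.05) and CAST reads alone of 1.15 (1.02 to 1.31). The receptor gene thus differed by less than the counting error only in RPM over both alleles, while 6 other members were called lower.

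Ppargc1a, which encodes the coactivator of mitochondrial gene programmes, held 9441 and 3218 reads. Its level was 969 RPM (949 to 988) at 9 weeks and 554 RPM (535 to 574) at 78 weeks, 1.75-fold lower (1.68 to 1.82). The counted locus runs from 51454249 to 52116058 of chromosome 5 over 662 kb and extends 548 kb beyond the gene in GENCODE M21, which spans 113 kb. Its reads are therefore those of a long interval and not of the shorter gene model alone. Genes over 300 kb had a median log2 ratio of −0.11 and 27.9% of them were called lower. Against that class the log2 ratio of Ppargc1a was −0.69, compared with −0.81 as measured, and the part of locus length was not tested.

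Pdk4, the kinase that switches pyruvate dehydrogenase off, showed the lowest ratio of the 9 members. It held 1784 reads at 9 weeks and 283 at 78 weeks, or 183 RPM (175 to 192) and 48.7 RPM (43.2 to 54.8). The aged level was 3.75-fold lower (3.31 to 4.27), with a log2 ratio of −1.91. Its locus spans 5483351 to 5496278 of chromosome 6. Genes of 10 to 30 kb had a median log2 ratio of 0.26, and against that class the log2 ratio of Pdk4 was −2.16. Both alleles shared the difference, with log2 ratios of −1.82 for BL6 and −2.00 for CAST reads, each scaled to the reads of its own allele.

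Of the uptake genes, the surface transporter and the lipase were lower and the binding protein higher. Cd36, the fatty acid translocase, was the most read member, with 16935 adult and 5484 aged reads over chromosome 5, 17781690 to 17888959. Its level was 1737 RPM (1711 to 1764) at 9 weeks and 945 RPM (920 to 970) at 78 weeks, 1.84-fold lower (1.78 to 1.90). It ranked at place 45 among all genes by reads at 9 weeks and at place 96 at 78 weeks. Cd36 alone made up 41.7% and 38.9% of the reads of all 10 members. Since endothelial cells and macrophages also carry CD36, their markers are given beside it: 9 endothelial markers summed to 918 RPM at 9 weeks and 1379 RPM at 78 weeks, and 7 macrophage markers to 346 and 550 RPM. Both sums were higher at 78 weeks, and the sum of 6 adipocyte markers was lower, from 44.3 to 33.8 RPM. The lists were mixed. Of the endothelial markers 4 were called higher and 5 neither, with a median log2 ratio of 0.33 against 0.22 for all genes. Of the macrophage markers 4 were called higher and 3 neither, where 28.0% of all genes were called higher. Of 3 adipocyte markers above the minimum 1 was called lower and 2 neither, where 11.8% of all genes were called lower. The part of any of these cell types in the value of Cd36 was not tested.

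Lpl, the lipase that frees fatty acids from triglyceride-rich particles, held 5118 and 1937 reads at 68880555 to 68906932 of chromosome 8. Its level was 525 RPM (511 to 540) at 9 weeks and 334 RPM (319 to 349) at 78 weeks, 1.57-fold lower (1.49 to 1.66). The call lies near the limit, since the interval reaches below 1.5. Adipocytes also make this lipase. Of 6 adipocyte markers 3 held 20 reads in both libraries, and the sum of all 6 was 44.3 RPM at 9 weeks and 33.8 RPM at 78 weeks. The ratios of the 3 were 0.610 for Acvr1c, 0.798 for Cidec and 1.05 for Plin1. The adipocyte hormone gene Adipoq, below the minimum, held 32 and 13 reads, or 3.28 and 2.24 RPM. Its ratio of 0.682 had an interval from 0.329 to 1.34. The part of adipocytes in the level of Lpl was not tested.

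Fabp3, the heart-type fatty acid binding protein of the cytosol, went the other way. It held 243 reads at 9 weeks and 370 at 78 weeks, over 130308778 to 130315463 of chromosome 4. Its level was 24.9 RPM (21.9 to 28.3) and 63.7 RPM (57.4 to 70.6), a ratio of 2.56 (2.17 to 3.02). Fabp3 spans 6.69 kb, and genes under 10 kb had a median log2 ratio of 0.46, with 43.2% of their 2313 members called higher. The log2 ratio of Fabp3 was 1.35, or 0.89 above that class. The part of locus length in this value was not tested.

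**Figure D2:**
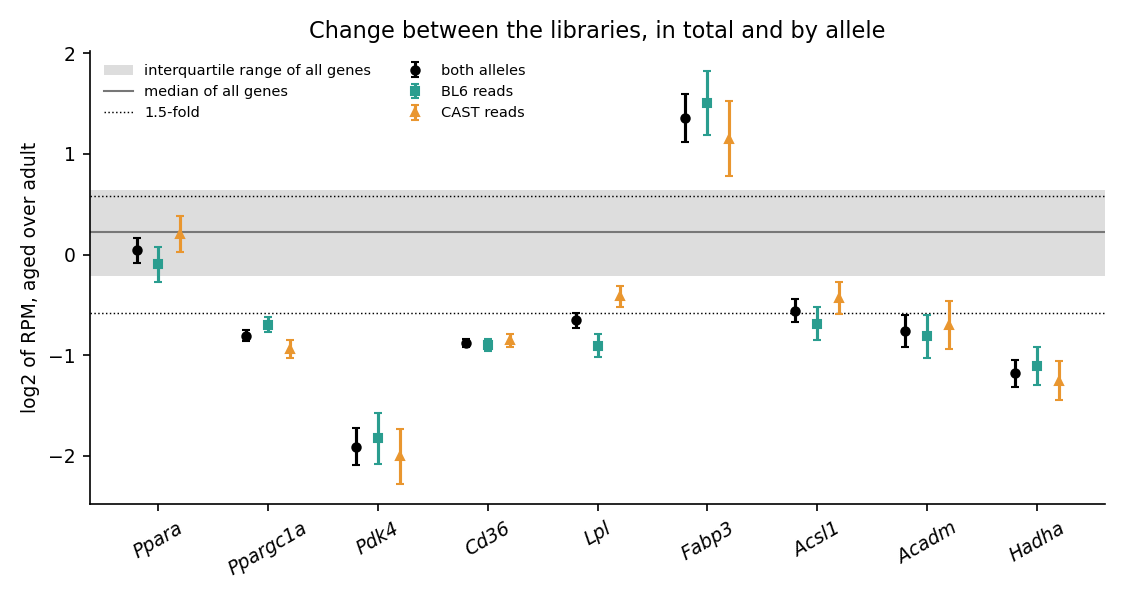
Log2 ratio of aged over adult RPM for the 9 members with 20 reads, for both alleles together (black), BL6 reads (green) and CAST reads (orange), with exact 95% intervals. The line at 0.22 and the grey band from −0.21 to 0.64 give the median and the interquartile range of all genes, and 7 of the 9 members, other than Ppara and Fabp3, lie below the band.

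The activating enzyme and the enzymes of oxidation were all lower in ratio, to different degrees. Acsl1, the main long-chain acyl-CoA synthetase of the heart, held 2244 and 908 reads at 46471037 to 46536051 of chromosome 8. Its level was 230 RPM (221 to 240) at 9 weeks and 156 RPM (146 to 167) at 78 weeks. The ratio of 0.679 (0.628 to 0.734) excluded 1 but just missed the 1.5-fold limit.

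Cpt1b, the muscle form of the enzyme that commits fatty acids to the carnitine shuttle, held 7 reads at 9 weeks and 1 at 78 weeks. These correspond to 0.718 RPM (0.289 to 1.48) and 0.172 RPM (0.00436 to 0.960). The intervals overlap, and the ratio of 0.240 has an interval from 0.00532 to 1.87, so no difference was detectable at this depth. Its locus, 89416405 to 89425862 of chromosome 15, lies wholly inside the transcript Gm44502, whose 97 and 68 reads equal those of Chkb and Cpt1b added together. The low number is one of SNP reads, and how many SNPs the locus offers was not known here.

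Acadm, the medium-chain acyl-CoA dehydrogenase of the first step of beta-oxidation, held 1257 and 442 reads at 153922353 to 153944643 of chromosome 3. Its level was 129 RPM (122 to 136) at 9 weeks and 76.1 RPM (69.2 to 83.6) at 78 weeks, a ratio of 0.590 (0.529 to 0.658). Hadha, the alpha subunit of the trifunctional protein that carries out the later steps on long chains, held 2215 and 583 reads at 30118304 to 30154980 of chromosome 5. Its level was 227 RPM (218 to 237) at 9 weeks and 100 RPM (92.4 to 109) at 78 weeks, 2.26-fold lower (2.06 to 2.48). Its locus shares 77 bp with Gareml, which held 5 and 2 reads. The beta subunit gene Hadhb begins 272 bp from Hadha and went from 297 to 157 RPM, a ratio of 0.531. The subunits of 1 enzyme were thus both called lower.

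Levels of different genes were compared per kb of counted locus, which does not adjust for the number of SNPs. In the adult library Lpl (19.9 RPM per kb), Cd36 (16.2) and Pdk4 (14.2) led, each apart from the next by its interval. Hadha (6.20) and Acadm (5.79) overlapped, as did Fabp3 (3.73) and Acsl1 (3.54), and Ppara (1.98), Ppargc1a (1.46) and Cpt1b (0.0759) followed. In the aged library Lpl (12.6 RPM per kb) was again first, Fabp3 (9.53) and Cd36 (8.81) overlapped behind it, and Pdk4 (3.77) and Acadm (3.42) overlapped next. Hadha (2.74) and Acsl1 (2.41) overlapped too, before Ppara (2.04), Ppargc1a (0.838) and Cpt1b (0.0182). Fabp3 thus stood at rank 6 of 10 in the adult and rank 2 in the aged order.

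Both alleles of most members gave similar values. The median allelic ratio of autosomal genes was 0.536 at 9 weeks and 0.537 at 78 weeks, and all members are autosomal. None of the 9 members lay 0.1 or more from this median in both libraries, where 17.7% of autosomal genes did, and none changed by 0.1 or more between the ages, where 28.0% did. Among the autosomal genes with at least 243 reads in both libraries these shares were 9.49% and 9.25%. Of the 6 genes called lower, 5 were also past 1.5-fold on each allele alone, where 7.63% of all genes and 6.67% of those with at least 243 reads were. Lpl was the exception.

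Lpl shifted from BL6 towards CAST. Its adult reads were 2719 BL6 and 2399 CAST, an allelic ratio of 0.531 (0.517 to 0.545), and its aged reads were 870 BL6 and 1067 CAST, an allelic ratio of 0.449 (0.427 to 0.472). The change of 0.0821 (0.0560 to 0.108, adult minus aged) was the largest of the 9 members. BL6 reads had an aged over adult ratio of 0.535 (0.495 to 0.577) and CAST reads of 0.751 (0.698 to 0.808), so only the BL6 allele passed 1.5-fold. Acsl1 lay on the same side, with 0.508 (0.488 to 0.529) at 9 weeks and 0.467 (0.434 to 0.50) at 78 weeks, and both of its intervals were below the autosomal median, as for 13% of autosomal genes and 20.4% of those with at least 243 reads. Its change of 0.0415 had an interval from 0.00297 to 0.0798.

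Ppargc1a moved in the opposite direction, from 0.524 (0.514 to 0.534) to 0.568 (0.551 to 0.585), a change of −0.0443 (−0.0641 to −0.0244). Ppara had 776 BL6 and 619 CAST reads at 9 weeks, a ratio of 0.556 (0.530 to 0.583), and 434 and 423 at 78 weeks, 0.506 (0.472 to 0.540). With its change of 0.0499 (0.00743 to 0.0921), 4 members had an interval that did not include 0 (Ppara, Ppargc1a, Lpl and Acsl1), where 26.5% of autosomal genes did. That share was 37.9% among genes with at least 243 reads, so 4 of 9 is close to the background. Cd36 leaned to BL6 at both ages, with 0.590 (0.583 to 0.597) and 0.585 (0.572 to 0.598), and was the only member whose intervals lay above the autosomal median in both libraries, as those of 13.4% of autosomal genes and 18.5% of those with at least 243 reads did. The intervals of the change of Pdk4, Cd36, Fabp3, Acadm and Hadha included 0.

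**Figure D3:**
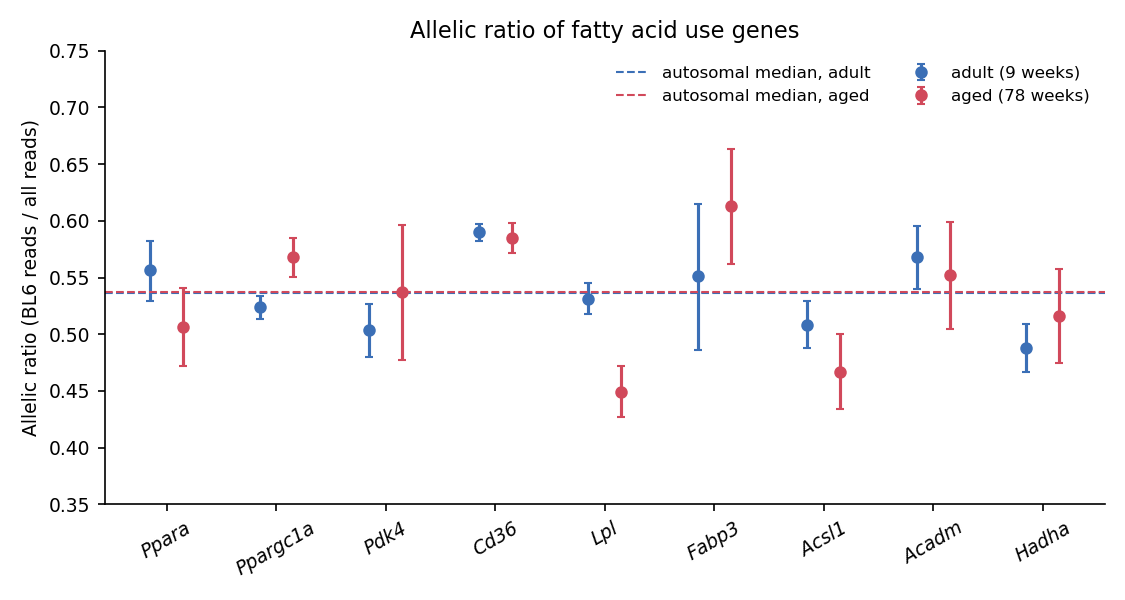
Allelic ratio (BL6 reads over all reads) of the 9 members with 20 reads in the adult (blue) and aged (red) library, with exact 95% binomial intervals, and dashed lines at the autosomal medians of 0.536 and 0.537. The intervals of the ages are apart for Lpl (0.531 and 0.449) and Ppargc1a (0.524 and 0.568), and Cd36 lies above the median in both.

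The wider pathway was read on 80 other genes in 8 lists, also chosen with earlier results of these data known. Of the 80 genes, 74 held 20 reads in both libraries. Of these, 21 were called lower and 11 higher, and 42 were neither, with a median log2 ratio of −0.11. Of all genes, 11.8% were lower, 28.0% higher and 35.8% below a ratio of 1, with a median of 0.22, and the counts of each list stand against these shares. After scaling by the median of ratios 26 were lower and 6 higher, where 18.4% and 18.0% of all genes were. Many of the genes named below share their locus with another annotated transcript, among them Vldlr, Acsl5, Acss1, Eci2, Decr1, Esrrg, Esrra, Ppard, Pdha1, Plin4 and Gpam, so reads of the neighbour can be counted for them.

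Mitochondrial beta-oxidation was the list with the most lower genes. Of its 13 genes 7 (53.8%) were called lower, against 11.8% of all genes, none was called higher, against 28.0%, and 12 had a ratio below 1, against 35.8%, with a median log2 ratio of −0.59. Acaa2, the thiolase that ends each round, went from 124 to 49.3 RPM (ratio 0.397). Acadl, the long-chain dehydrogenase, went from 164 to 95.1 RPM (0.579) and Hadh, which acts on shorter chains, from 163 to 94.6 RPM (0.579). Decr1 (0.537) and Eci2 (0.666), which deal with unsaturated chains, and Hadhb were called lower as well. Etfa, which passes the electrons on, had a ratio of 0.794 and was not called. Its partner subunit gene Etfb, with 334 and 76 reads, was called lower (0.382, 0.294 to 0.491) and was named after its value was seen. Acadm and Hadha, with ratios of 0.590 and 0.442, lay in the same range as these genes. Of the 5 carnitine shuttle genes 2 were lower and none higher, with a median of −0.48, and Slc22a5, the carnitine transporter of the cell surface, went from 69.1 to 41.5 RPM (0.600).

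Of 8 uptake and binding genes 3 were called higher (37.5%, against 28.0%) and 1 lower (12.5%, against 11.8%). The highest ratio among them was that of Fabp5, 3.16 (2.27 to 4.42), on 58 and 109 reads. Its locus of 4.03 kb is in the class under 10 kb, of which 43.2% were called higher. Slc27a4 had a ratio of 2.01 (1.21 to 3.39) on 30 and 36 reads. Slc27a6 held 28 reads in each library, with an interval of the ratio from 0.958 to 2.94. All 3 were named after their values were seen. The lower one was Vldlr, a lipoprotein receptor that acts beside Lpl, at 181 and 82.2 RPM (0.453). Of 6 activation genes 1 was higher (Acsl5, ratio 2.12) and 1 lower, and the most read, the acetate-activating Acss1, had a ratio of 0.846. Of 19 regulators 2 were higher, 2 lower (10.5% each, against 28.0% and 11.8% of all genes) and 15 neither, with a median log2 ratio of 0.20, close to the 0.22 of all genes. The receptor gene Ppard was called higher (1.91), as was Esrra (1.88), whereas Esrrg, another receptor that PGC-1 alpha coactivates, went from 1531 to 726 RPM (0.474). Acacb, whose product makes the inhibitor of the carnitine shuttle, went from 637 to 384 RPM (0.603).

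Of 8 genes of the pyruvate dehydrogenase list, which holds subunits of the complex that PDK4 acts on and its other kinases and phosphatases, 2 were higher and 2 lower. Pdha1 (1.57) and Pdhb (1.54), subunits of that complex, were called higher, and the subunit gene Dlat had a ratio of 1.22 and was not called. Relative to the median of all genes, the log2 ratios of Pdha1 and Pdhb were 0.43 and 0.40, within 1.5-fold. The log2 ratio of Pdhb as measured was 0.62. Its locus is under 10 kb, a class with a median of 0.46 and 43.2% of genes called higher. The part of locus length in this value was not tested. Both lower genes encode kinases of the complex, as Pdk4 does. These were Pdk1, which went from 57.3 to 33.8 RPM (0.589), and Pdk2, which went from 38.6 to 17.1 RPM (0.442). The remaining kinase gene of the list, Pdk3, had a ratio of 0.995 (0.725 to 1.36) and was not called. Pdk2 and Pdk3 were named after their values were seen. Of 6 peroxisomal genes 1 was higher and 2 lower, with Ehhadh, a bifunctional enzyme, at 76.4 and 26.5 RPM (0.347), and Abcd3, a transporter of acyl-CoA, at 232 and 135 RPM (0.581). Of 9 storage and lipolysis genes 2 were higher and 4 lower. Gpam (0.413) and Dgat2 (0.545), which build triglycerides, were lower, and the droplet coat gene Plin4 was higher (1.86). The Plin4 locus of 9.37 kb is also in the class under 10 kb, and its log2 ratio was 0.90 against the class median of 0.46. The part of locus length in the value of Plin4 was not tested. The remaining lower genes were the lipase genes Pnpla2 (0.416) and Lipe (0.418), on 30 and 61 aged reads. Both were named after their values were seen.

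**Figure D4:**
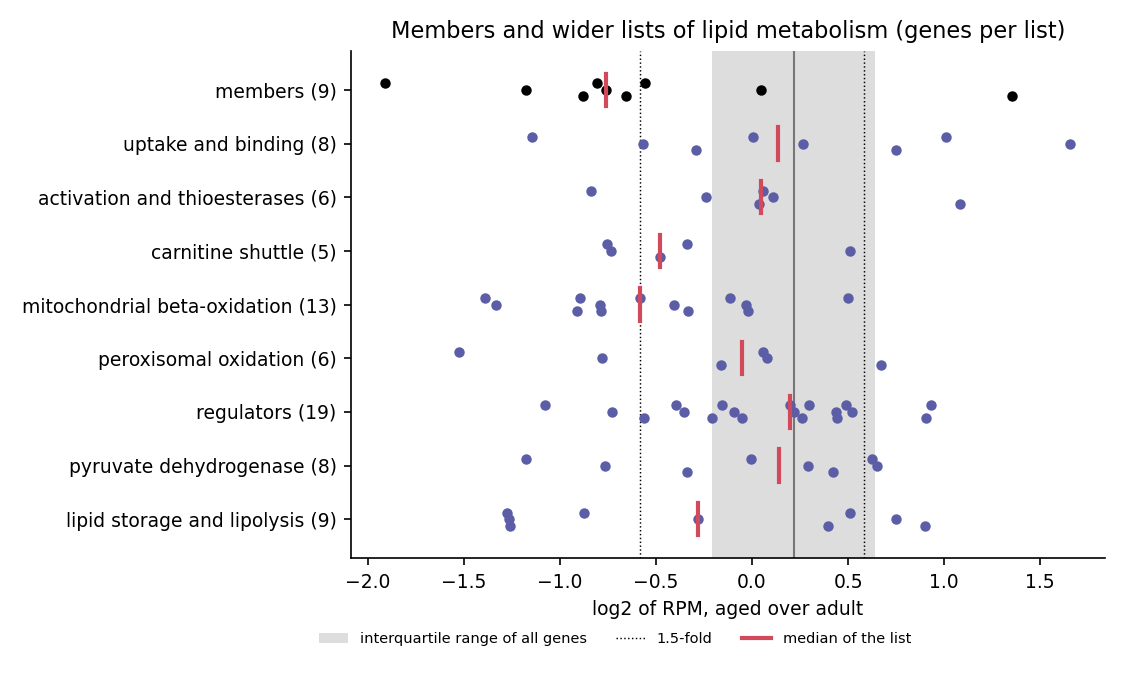
Log2 ratio of aged over adult RPM for the 9 members (black) and for 74 other genes in 8 lists (blue), with the number of genes in parentheses and a red bar at each median. The grey line and band give the median (0.22) and interquartile range of all genes, and the medians of the members (−0.76), mitochondrial beta-oxidation (−0.59) and the carnitine shuttle (−0.48) lie below the band, as does that of storage and lipolysis (−0.28).

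Markers of other cell types moved between the libraries while those of cardiomyocytes kept nearly the same sum, with a ratio of 0.940 (0.934 to 0.945). The ratio of summed levels was 1.57 for 8 fibroblast markers, 1.86 for 6 pericyte markers (Kcnj8 at 0 in both libraries), 3.00 for 4 smooth muscle markers and 1.27 for 3 Schwann cell markers. It was 0.762 for adipocyte, 0.381 for 4 lymphocyte and 0.126 for 4 mesothelial markers. Within the cardiomyocyte list single genes ranged from a log2 ratio of −0.79 for Ttn to 0.85 for Myl2. Scaled to the sum of these markers, Pdk4, Hadha, Cd36, Ppargc1a and Acadm were still called lower and Fabp3 higher, and Lpl was just short of the limit, with a log2 ratio of −0.56 in place of −0.65. Fewer nuclei of a type and less RNA per nucleus cannot be told apart in pooled reads. The study counted nuclei by type, whichever X chromosome was active. It reported a smaller share of cardiomyocytes and a larger share of fibroblasts in the aged heart. The part of this shift in the values of the members was not tested.

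The genes most like Cd36 and Pdk4 were sought by the distance between the log2 levels of both alleles in both libraries, each gene centred on its own mean, among 4912 genes with at least 200 reads. With 1 library per age this rests on 4 values per gene. Nearest to Cd36, the most read member, were Fyco1 at a distance of 0.0365, Hadhb at 0.0839 and Gm4258 at 0.114. Nearest to Pdk4, the member with the largest difference, were Nr3c2, which encodes the mineralocorticoid receptor, at 0.144, Ppfibp2 at 0.192 and Gm31013 at 0.298. Nr3c2 went from 16122 to 2476 reads, a log2 ratio of −1.96.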

How the data were processed

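Nuclei of 1 adult and 1 aged heart were profiled with the 10x 3′ chemistry. Alignment by the authors used Cell Ranger 7.1.0 and GRCm38. They split the alignments by nucleus with sinto, pooled nuclei with an active BL6 X chromosome and counted SNP-overlapping reads with Allelome.PRO2 over RefSeq loci. The deposited counts of BL6, CAST and total reads per gene are not normalized. The deposited allelic ratio is a fraction rounded to 2 decimals, and the deposited allelic score was not used. The study removed background RNA with CellBender and doublets with DoubletFinder from its expression matrices. The allelic counts came from the Cell Ranger alignments, a route on which no background correction is described, and whether their nuclei were limited to those that passed the doublet filter is not given in the sources used here. The same holds for the collapsing of duplicate reads and the use of strand. The intervals treat reads as independent, and overlapping loci can share reads.

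Allelic ratios and RPM were recomputed from the counts with Python 3.11.15, pandas 2.3.3, numpy 2.4.6 and scipy 1.17.1. RPM was scaled to the SNP reads of each library, and for single alleles to the reads of that allele. Counts carry exact Poisson intervals, ratios of counts and allelic ratios exact binomial intervals, and differences between allelic ratios Newcombe intervals, all at 95%. Genes needed 20 reads in both libraries, and the call limits were 1.5-fold and 0.1 in allelic ratio. With 1 library per age there is no replicate and no test. The functions were tested on simulated data. Coordinates are 1-based on GRCm38, with strands from GENCODE M21.

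All members are named. In each pathway list the most read gene and every gene past 1.5-fold with at least 100 reads in both libraries were named, together with loci that overlap a member and the 3 genes nearest to Cd36 and to Pdk4. The values of 1 gene that this rule picks are not reported. The members and the lists were chosen with earlier results of these data known. Ages come from the labels, and a number of weeks in a file's name that differs for the aged heart was not used. Alternatives comprised other scalings, read minimums, folds and single alleles. Centring on classes of locus length was added after the data were seen.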

Additional observations from a re-analysis of the deposited data

How the results depend on the processing

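No paired analysis was possible because each age has 1 library without a replicate number, and for the same reason no replicate could be left out. Of the 7 members called, 3 passed a 2-fold limit (1 higher, 2 lower). The median log2 ratio of the members was −0.76 and became −0.98 with median-of-ratios scaling and −0.90 relative to genes of like locus length, a setting chosen after seeing the data. No member changed its allelic ratio by 0.1, and 2 did by 0.05. Of the other pathway genes 32 were past 1.5-fold, 50 past a more lenient limit, 12 past 2-fold, and 21 with at least 100 reads in both libraries. Ppargc1a, Pdk4, Cd36, Fabp3, Acadm and Hadha passed 1.5-fold in 7 of 7 alternatives of scale, allele and locus length, Lpl in 5 and Acsl1 in 4, all with the sign of the reported value, and the log2 ratio of Ppara ranged from −0.18 to 0.21. Of the pathway genes, 15 were called higher and 20 lower when scaled to cardiomyocyte markers, and 5 and 27 relative to length classes. Over all genes, the marker scale gave 33.1% higher and 9.79% lower. Length classes gave 2148 of all genes higher and 2297 lower, or 16.9% and 18.0%. The depth limits Cpt1b, with 7 and 1 reads.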

Other observations

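Of autosomal genes, 17.7% lay 0.1 or more from the autosomal median in both libraries, and 9.49% of those with at least 243 reads did. Among 71 autosomal genes of the pathway lists, 4 did. These were Mlycd, which encodes malonyl-CoA decarboxylase, with allelic ratios of 0.703 at 9 weeks and 0.713 at 78 weeks, Hadh with 0.362 and 0.239, the acyl-CoA synthetase gene Acsl6 with 0.188 and 0.128, and the transporter gene Slc27a6 with 0.143 in both, on 28 reads each. Mlycd leaned to BL6 and the other 3 to CAST.

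Of 54 such genes with at least 100 reads in both libraries, 10 changed their allelic ratio by 0.1 or more, against 14.7% of 7068 autosomal genes at that depth. Klf15, a regulator of cardiac lipid use, went from 0.494 to 0.300, the droplet protein gene Plin2 from 0.516 to 0.369, and Pdp2, the phosphatase that reverses the action of PDK4, from 0.585 to 0.799. The X-linked genes Acsl4 (0.975 and 0.974), Pdk3 (1.00 and 0.970) and Pdha1 (0.935 and 0.940) were read almost wholly from BL6, the active X chromosome of the pooled nuclei. Apart from Hadh and Pdha1, the genes of these paragraphs are not named by the rule and were picked once their values had been seen.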
